A study of Mus musculus with 2 samples.

Results

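Lymphocytes patrol the body by entering lymph nodes from the blood and leaving them again, and 5 genes of this circuit were examined here in regulatory T (Treg) cells. They are Klf2 and Klf3, which encode transcription factors, S1pr1 and S1pr4, which encode receptors for sphingosine 1-phosphate (S1P), and Ccr7, a chemokine receptor gene. The 5 genes were taken by name from the 16098 genes of the count table. The comparison was between control and rescued cells, and between cells with few and many transcripts of Itgae and Icos.

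The data are single-cell RNA counts from Treg cells of spleen and lymph nodes of C57BL/6 male mice, listed at 7 months. Cells from 5 mice of the genotype Foxp3DTR-GFP/y Cd4creERT2 made up the control library, and their Foxp3 allele is active throughout and also encodes the diphtheria toxin receptor and GFP. Cells from 4 mice of the genotype Foxp3LSL/y Cd4creERT2 made up the rescued library, and in these Foxp3 was silenced by a removable stop cassette. Both groups carried the R26Tom reporter and had received 4-hydroxytamoxifen (4-OHT) once, on postnatal day 14, which activates Cre in cells that express Cd4, removes the cassette in rescued mice and switches on tdTomato in both. The study counts the 7 months from the 4-OHT dose. Cells were sorted on GFP, and the labels give no separate values for single mice.

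S1P is abundant in blood and lymph and scarce inside lymphoid tissue, and S1PR1 on a T cell reads this gradient so that the cell can leave the node. KLF2 is known as an activator of S1pr1 in resting T cells, KLF3 is a related zinc finger protein known mainly as a repressor, and both recognise the DNA core CACCC. S1PR4 is an S1P receptor found largely on blood and lymphoid cells, and CCR7 guides T cells into the T cell zone of lymph nodes along the chemokines CCL19 and CCL21. Itgae encodes CD103, an integrin chain of T cells held in epithelia, and Icos encodes a costimulatory receptor of activated T cells.

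With a single pooled library for each group, differences could not be set against a spread between replicates, and none was tested. There were 3634 control cells, at a median of 3739.5 unique molecular identifiers (UMIs, tags that each mark 1 captured RNA molecule) per cell, and 3390 rescued cells, at a median of 3846.5. Cell barcodes found in both libraries numbered 3. Levels are given as CPM, the number of UMIs expected if all counts were scaled to a fixed total, computed from the UMIs of a gene and all UMIs of the same cells, and ranges in parentheses are 95% intervals that cover counting error only. Foxp3 had 1250 UMIs in the control and 7277 in the rescued library, and the Treg markers Il2ra, Ikzf2, Ctla4, Tnfrsf18, Cd3e, Cd4 and Trac each had over 1000 UMIs in both. Of the defining markers of other cells, Cd8a had 1 UMI per library, Kdr had 2 UMIs in control and 1 in rescued cells, Lyz2 6 and 16, Cd79a 35 and 21, and Ms4a1 0 and 14, while Cd8b1 had 275 and 255. Summed marker levels were 6.22 and 2.96 CPM for B cells, 18.6 and 17.1 CPM for CD8 T or NK cells and 0.259 and 1.87 CPM for red blood cells, and nearly all of the myeloid and endothelial sums came from Cst3 (2566 and 3091 UMIs) and Pecam1 (1785 and 1055 UMIs). Without the 283 control and 267 rescued cells that held a defining marker, the Klf2 ratio reported below was -1.13 in place of -1.09. A cell type known to lack the 5 genes was not present, so the level that free RNA gives was not measured directly. The lowest shares seen in groups of at least 50 cells bound it from above in each library. In the rescued library 279 rescued cells of the cluster led by Ccr9 and Gbp2b had a Klf2 UMI in 10.0% and an S1pr1 UMI in 3.94% of cells, at a median of 3766 UMIs, and 3.17% of 441 cells of the cluster led by Pdcd1 and Lag3 had a Ccr7 UMI. In the control library the lowest shares were 13.2% for Klf2 and 8.12% for Ccr7, both in the Pdcd1 cluster, and 14.7% for S1pr1. The lowest shares for S1pr4 (24.4% in control and 24.0% in rescued cells) and Klf3 (39.7% and 35.8%) bound it only loosely, since the shares over all cells given below were 38.7% and 34.0% for S1pr4 and 49.7% and 48.1% for Klf3.

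Because the CACCC core is the sequence that the 2 Klf proteins recognise, the promoters of the members were searched for it. The RefSeq promoter table for GRCm38.p6 had an entry for 3 of the 5 members: Klf2, Klf3 and S1pr4. The 250 bases before the RefSeq start are shown for Klf2 (chr8:72318812-72319061, plus strand) and for S1pr4 (chr10:81500138-81500387, minus strand), 5′ to 3′ along the gene, with matches to CACCC on either strand in capitals.
Klf2: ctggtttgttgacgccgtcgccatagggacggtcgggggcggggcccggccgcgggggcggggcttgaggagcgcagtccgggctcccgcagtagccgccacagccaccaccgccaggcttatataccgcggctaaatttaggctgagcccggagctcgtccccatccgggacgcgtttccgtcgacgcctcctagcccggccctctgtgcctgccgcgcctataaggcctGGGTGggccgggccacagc
S1pr4: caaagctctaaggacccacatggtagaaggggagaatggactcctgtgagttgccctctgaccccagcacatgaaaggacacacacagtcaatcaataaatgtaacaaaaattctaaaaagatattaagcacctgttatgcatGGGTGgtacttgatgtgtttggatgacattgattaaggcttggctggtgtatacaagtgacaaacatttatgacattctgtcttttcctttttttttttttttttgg
Each of these promoters held 1 match, on the strand opposite to the gene, and its first base lay at position -19 of Klf2 and -107 of S1pr4. By the GENCODE annotation the Klf2 transcript starts earlier, at 72319033, so that the Klf2 match lies inside the transcript there. The Klf3 promoter (chr5:64803271-64803520, plus strand) held 5 matches, 2 of them on the strand of the gene. The GENCODE start of Klf3, at 64803388, puts 3 of the 5 inside the transcript. CACCC was found in 52.0% of the 32851 promoters in the table, so a match was common. The FOXO core GTAAACA, searched because FOXO1 is a known activator of Klf2, was found in 3.17% of all promoters and in 0 of the 3. The promoters differed in base composition, with 71.2% G and C for Klf2, 78.4% for Klf3 and 38.8% for S1pr4.

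The transcription factor Klf2 (ENSMUSG00000055148, GRCm38 chromosome 8, 72319033 to 72321656) had 13058 UMIs in the control library, or 845 CPM (831 to 860), and 6185 UMIs in the rescued library, or 398 CPM (388 to 408). The rescued level was lower by a factor of 2.12, and its log2 ratio of -1.09 stood at place 85 from the lowest of the 9779 genes with at least 100 UMIs. Klf3 (ENSMUSG00000029178, chromosome 5, 64803388 to 64832901) had 3298 UMIs in control cells, or 214 CPM (206 to 221), and 2943 in rescued cells, or 189 CPM (183 to 196). Its log2 ratio was -0.17 (-0.25 to -0.10), so the 2 Klf genes differed in how far apart the libraries were.

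The S1P receptor genes differed from each other in the same way. S1pr1 (ENSMUSG00000045092, chromosome 3, 115710433 to 115715072) had 2829 UMIs in control cells, or 183 CPM (176 to 190), and 1442 in rescued cells, or 92.8 CPM (88.1 to 97.7). Its log2 ratio was -0.98 (-1.07 to -0.89), a level lower by a factor of 1.97. S1pr4 (ENSMUSG00000044199, chromosome 10, 81497747 to 81500132) had 2111 UMIs in control cells, or 137 CPM (131 to 143), and 1819 in rescued cells, or 117 CPM (112 to 123), with a log2 ratio of -0.22 (-0.31 to -0.13). The intervals of the S1pr1 and S1pr4 ratios did not overlap.

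Ccr7 (ENSMUSG00000037944, chromosome 11, 99144196 to 99155077) showed the widest gap of the 5 members. It had 3355 UMIs in control cells, or 217 CPM (210 to 225), and 1374 in rescued cells, or 88.4 CPM (83.8 to 93.2), a log2 ratio of -1.30 (-1.39 to -1.21) at place 55. Klf2, S1pr1 and Ccr7 were thus at least 1.5-fold lower in the rescued library, which was true of 2.7% of all genes with at least 100 UMIs, and 0 of the 5 members were 1.5-fold higher, against 5.15% of genes. The median log2 ratio of the members was -0.98, and that of all genes 0.024.

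**Figure D1:**
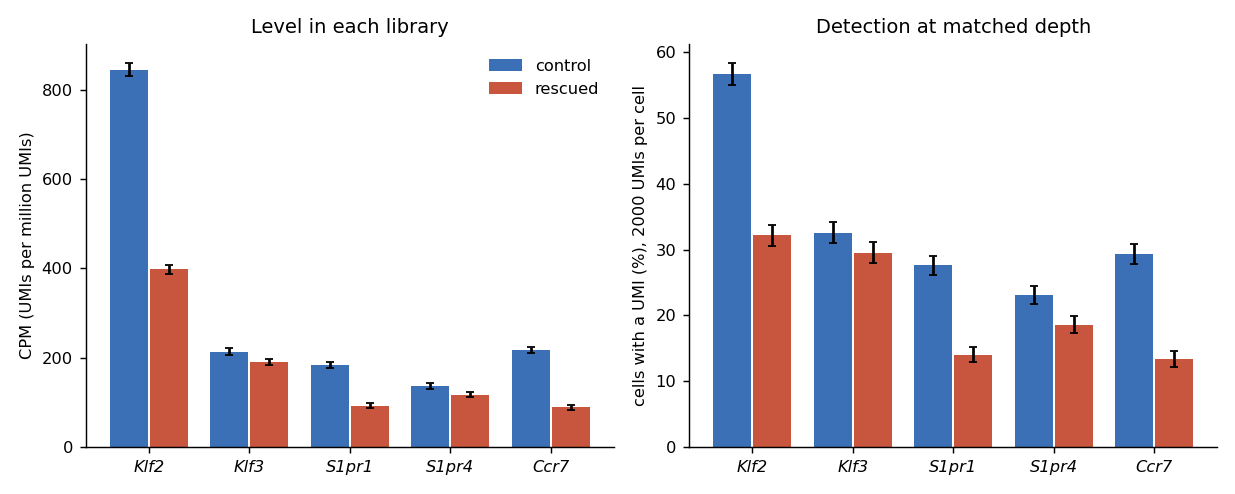
Left, CPM of each member in the control (blue) and rescued (red) library, with exact Poisson 95% intervals. Right, the percentage of cells with at least 1 UMI after every cell was thinned to 2000 UMIs, with exact binomial 95% intervals. Klf2, S1pr1 and Ccr7 were lower in the rescued library on both scales, while the Klf3 and S1pr4 bars were closer together.

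A lower level could be spread over all cells or lie in the number of cells with any transcript, so the UMIs per cell were counted. In the control library 34.5% of cells had 0 Klf2 UMIs and 26.3% had 6 or more. In the rescued library 58.6% had 0 and 11.8% had 6 or more. Klf2 was thus unevenly spread in both: the cells with 6 or more UMIs held 70.4% of all Klf2 UMIs in the control and 63.8% in the rescued library. The other members were counted more thinly, and cells with 6 or more UMIs made up between 0.36% (S1pr4) and 1.90% (Ccr7) of control cells and between 0.41% (S1pr4) and 1.00% (Klf3) of rescued cells.

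**Figure D2:**
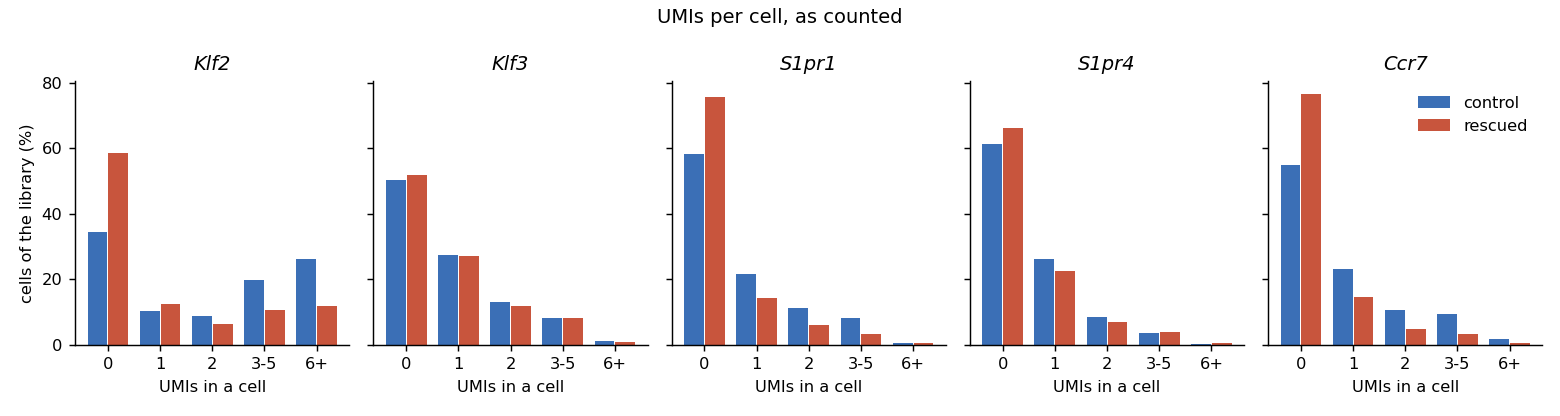
Percentage of cells of each library (y axis) with 0, 1, 2, 3 to 5 and 6 or more UMIs of each member (x axis), as counted, control in blue and rescued in red. The bins are unequal in width. Cells with 6 or more Klf2 UMIs are more frequent in the control library, and the bars at 0 UMIs are higher in the rescued library for all 5 genes.

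Because deeper cells show more genes, shares of cells were compared after each cell had been thinned at random to 2000 UMIs, at the cost of 65 control and 33 rescued cells that were shallower. Klf2 was then found in 56.7% (55.1 to 58.4) of control and 32.2% (30.6 to 33.8) of rescued cells, against 65.5% and 41.4% as counted. Among cells with a Klf2 UMI at this depth, the mean was 3.17 UMIs in control and 2.49 in rescued cells. Both the share of cells and the count in positive cells were thus lower. At counts this sparse a lower level in every cell would also lower both. These values therefore do not separate a drop spread over all cells from fewer cells with transcripts. S1pr1 was found in 27.6% (26.1 to 29.1) of control and 14.0% (12.8 to 15.2) of rescued cells, against 41.8% and 24.4% as counted.

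Ccr7 had the same pattern, with 29.4% (27.9 to 30.9) of control and 13.3% (12.2 to 14.5) of rescued cells, and 45.0% and 23.3% as counted. Klf3 differed less, with 32.6% (31.0 to 34.2) and 29.5% (28.0 to 31.1), and 49.7% and 48.1% as counted. S1pr4 was found in 23.1% (21.7 to 24.5) and 18.6% (17.3 to 19.9), and in 38.7% and 34.0% as counted. Counted over the 5 genes together at 2000 UMIs per cell, 18.9% (17.6 to 20.2) of control and 35.7% (34.0 to 37.3) of rescued cells had a UMI of none of them. Cells with a UMI of 3 or more members made up 26.4% (25.0 to 27.9) of the control and 10.7% (9.64 to 11.8) of the rescued library.

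Within a library the other members rose with the number of Klf2 UMIs in a cell, S1pr1 most steeply. In control cells S1pr1 was at 40.4 CPM in 1254 cells with 0 Klf2 UMIs, 125 CPM with 1, 174 CPM with 2 and 292 CPM in the 1679 cells with 3 or more. In rescued cells S1pr1 was at 24.6 CPM in 1987 cells with 0 Klf2 UMIs, 77.6 with 1, 125 with 2 and 229 in the 758 cells with 3 or more. The log2 ratio of the highest to the lowest class was 2.85 (2.64 to 3.07) in control and 3.22 (3.00 to 3.44) in rescued cells. S1pr1, S1pr4, Klf3 and Ccr7 were all at least 1.5-fold higher in the highest class in both libraries, as were 3.77% of genes tested in control and 3.14% in rescued cells. None of them was 1.5-fold lower, against 7.66% and 4.7% of genes.

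S1pr4 rose from 83.7 to 179 CPM between the lowest and highest Klf2 class in control and from 72.5 to 208 CPM in rescued cells. Klf3 was flat over 0 and 1 Klf2 UMIs, at 161 and 160 CPM in control cells, and reached 268 CPM with 3 or more, and in rescued cells it went from 163 to 252 CPM. Ccr7 went from 158 to 255 CPM in control and from 72.4 to 114 CPM in rescued cells. The rescued level of Ccr7 in cells rich in Klf2 was therefore below the control level in cells with 0 Klf2 UMIs, which was not the case for S1pr1, S1pr4 or Klf3. The markers went the opposite way, Itgae from 129 to 48.2 CPM and Icos from 406 to 158 CPM in control cells, and from 350 to 272 CPM and from 692 to 495 CPM in rescued cells. Median cell totals went up with the Klf2 class, from 3492 to 3900 UMIs in control and from 3679 to 4444 in rescued cells.

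How the members changed with Itgae was examined by grouping cells by their Itgae UMIs. In the control library 3026 cells had 0, 300 had 1, 162 had 2 and 146 had 3 or more Itgae UMIs. In the rescued library the numbers were 1463, 745, 443 and 739. Klf2 and S1pr1 were lower in cells with Itgae in both libraries, Klf3 less so, and S1pr4 was not. In control cells Klf2 went from 924 CPM (907 to 941) with 0 Itgae UMIs to 568 with 1, 473 with 2, 598 with 3 and 421 (363 to 486) with 4 or more. In rescued cells it went from 484 CPM (466 to 503) through 392, 306 and 394 to 316 (296 to 336). Most of the control fall lay between 0 and 1 UMI, and the level at 3 UMIs was above that at 2 in both libraries.

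S1pr1 had the steepest fall with Itgae in control cells, from 203 CPM (196 to 211) with 0 Itgae UMIs through 134, 73.7 and 77.6 to 65.0 CPM (43.5 to 93.3) with 4 or more, the last resting on 29 UMIs. In rescued cells it went from 114 CPM (106 to 123) through 88.3, 67.1 and 91.8 to 77.1 (67.7 to 87.5). From 2 Itgae UMIs on, the S1pr1 intervals of the libraries overlapped in every class. Klf3 fell from 223 to 123 CPM in control and from 209 to 162 CPM in rescued cells over the same classes.

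S1pr4 stayed between 132 and 155 CPM in all 5 control classes, and between 91.9 and 144 CPM in the rescued classes with no steady direction. Ccr7 went from 224 CPM (215 to 232) with 0 Itgae UMIs to 175 (138 to 218) with 4 or more in control cells. In rescued cells Ccr7 was at 83.3 CPM (75.9 to 91.2) with 0 and 87.7 (77.6 to 98.7) with 4 or more, and 97.8 at its highest. Ccr7 was thus already low in rescued cells without an Itgae UMI, at a log2 ratio of -1.43 (-1.57 to -1.28) to control cells without one.

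Taking 3 or more against 0 Itgae UMIs, the log2 ratio in control cells was -0.88 (-1.02 to -0.74) for Klf2, -0.72 for Klf3, -1.52 (-1.92 to -1.15) for S1pr1, 0.09 (-0.19 to 0.36) for S1pr4 and -0.32 (-0.57 to -0.08) for Ccr7. The 3 genes Klf2, Klf3 and S1pr1 were at least 1.5-fold lower, as were 6.81% of genes tested, and 0 were 1.5-fold higher, against 7.54%. In rescued cells the ratios were smaller: -0.50 (-0.59 to -0.41), -0.29 (-0.42 to -0.16), -0.48 (-0.67 to -0.29), 0.07 (-0.09 to 0.24) and 0.05 (-0.15 to 0.24) in the same order. There 0 of the 5 members passed 1.5-fold, against 1.1% of genes lower and 2.11% higher. Cells with more Itgae UMIs were also deeper, with median totals of 3682 UMIs for 0 and 4826 for 3 or more in control and 3461 and 5211 in rescued cells. Within 5 classes of cell total, the ratio in control cells was -1.78 for Klf2 and -2.11 for S1pr1, and in rescued cells -0.63 and -0.70. With cells thinned to 2000 UMIs the Ccr7 ratio in control cells was -0.59, on 9 UMIs in the upper class. In rescued cells the Ccr7 ratio kept its sign in 10 of 13 alternatives. It ranged from -1.38 at 1000 UMIs, on 1 UMI in the upper class, to 0.76 within clusters. The rescued S1pr4 ratio kept its sign in 7 of 13, from -0.98 at 1000 UMIs, on 2 UMIs, to 0.11 within clusters.

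**Figure D3:**
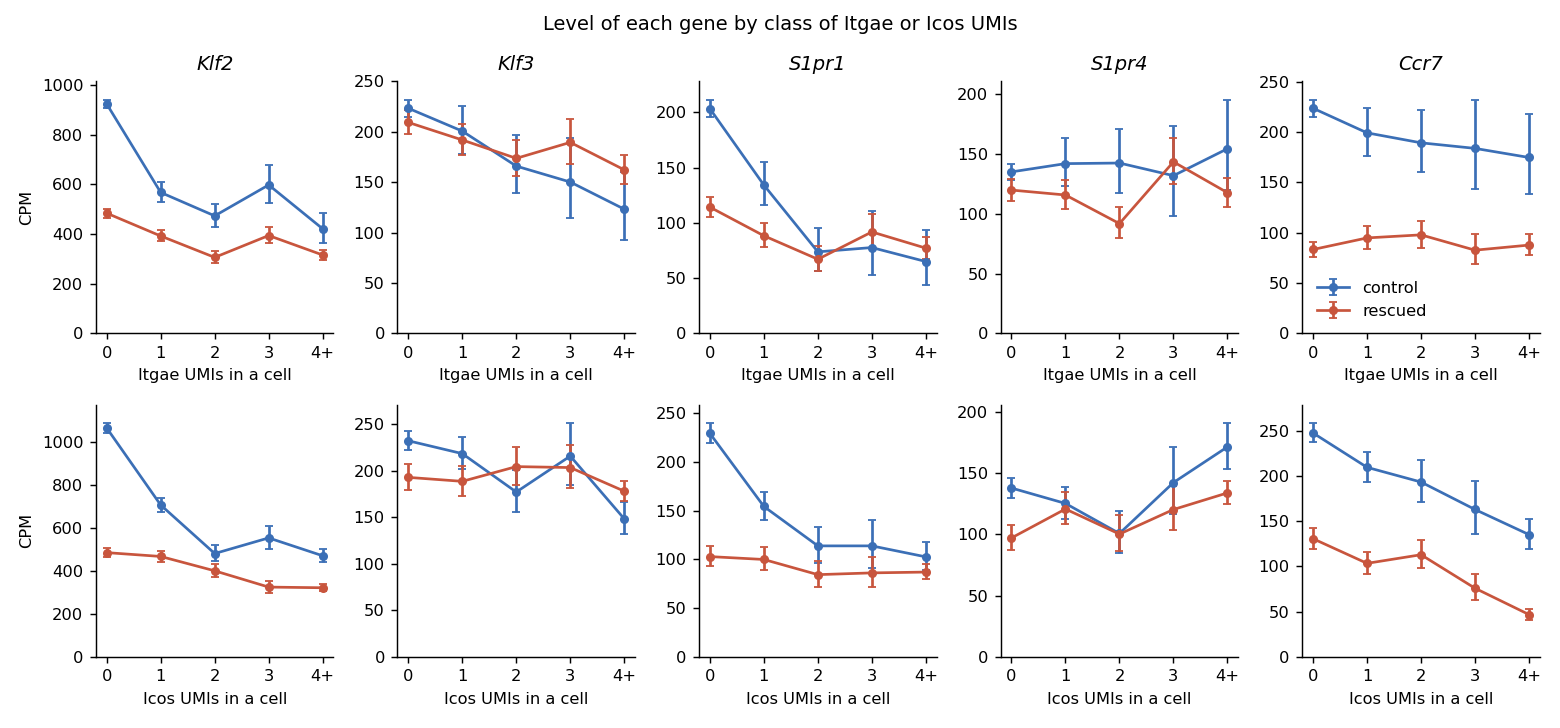
CPM of each member (y axis, from 0) by the number of Itgae UMIs (upper row) or Icos UMIs (lower row) in a cell, control in blue and rescued in red, with exact Poisson 95% intervals. As counted, without thinning, Klf2 and S1pr1 fall along both axes in control cells and S1pr4 does not. Ccr7, as counted, falls with Icos but is flat with Itgae in rescued cells.

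Icos gave a different order of members from Itgae. In control cells 2183 had 0, 694 had 1, 295 had 2 and 462 had 3 or more Icos UMIs, and in rescued cells 1000, 687, 444 and 1259. Klf2 went from 1066 CPM (1044 to 1088) with 0 Icos UMIs through 707, 481 and 554 to 470 (440 to 502) with 4 or more in control cells. The rescued level went from 485 CPM (463 to 508) through 467, 400 and 325 to 321 (307 to 337). The control curve thus dropped at once and levelled off, while the rescued curve began near the level at which the control curve ended.

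S1pr1 followed Klf2 in control cells, from 229 CPM (219 to 240) with 0 Icos UMIs to 103 (88.9 to 118) with 4 or more, but in rescued cells it went only from 103 (92.9 to 113) to 87.0 (79.4 to 95.1). Ccr7 fell with Icos in both libraries, from 248 (237 to 258) to 135 CPM (119 to 152) in control cells and from 131 (119 to 143) to 46.7 CPM (41.2 to 52.8) in rescued cells. S1pr4 went the other way, from 138 (130 to 146) to 171 CPM (154 to 191) in control cells and from 97.1 (87.4 to 108) to 134 CPM (124 to 144) in rescued cells. Klf3 went from 232 to 148 CPM in control cells and stayed between 178 and 205 CPM in rescued cells.

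For 3 or more against 0 Icos UMIs the log2 ratio in control cells was -1.11 (-1.19 to -1.03) for Klf2, -0.47 (-0.62 to -0.32) for Klf3, -1.12 (-1.30 to -0.94) for S1pr1, 0.24 (0.08 to 0.40) for S1pr4 and -0.79 (-0.95 to -0.64) for Ccr7. Klf2, S1pr1 and Ccr7 passed 1.5-fold lower there, as did 4% of genes tested, and 0 members passed 1.5-fold higher, against 7.74%. In rescued cells the ratios were -0.59 (-0.68 to -0.50), -0.07 (-0.21 to 0.06), -0.25 (-0.43 to -0.06), 0.43 (0.26 to 0.61) and -1.31, and Klf2 and Ccr7 passed, as did 2.2% of genes, against 0 members and 3.79% of genes higher. Median totals were 3652 and 4869.5 UMIs in control and 3475 and 4558 in rescued cells. Within 5 classes of cell total the ratio was -1.61 for Klf2 and -1.56 for S1pr1 in control cells and -0.70 and -0.47 in rescued cells. With every cell thinned to 2000 UMIs it was -1.51 for Klf2, -1.69 for S1pr1 and -1.75 for Ccr7 in control cells and -0.84, -0.63 and -1.55 in rescued cells. At 1000 UMIs it was -2.59 for Klf2 and -2.14 for S1pr1 in control cells, on 10 and 3 UMIs in the upper class, -1.28 for Klf2 and -2.64 for Ccr7 in rescued cells, on 38 and 3 UMIs, and -0.14 for S1pr4 in rescued cells, on 20 UMIs. The cluster of cells described below that is led by S100a4 and Ccr2 mattered for S1pr4: without it the S1pr4 ratio was -0.17 in control and 0.09 in rescued cells.

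The joint classes show which marker each gene went with. In control cells Klf2 was at 1126 CPM (1102 to 1151) in 1937 cells with neither marker, 637 (590 to 687) in 246 cells with Itgae alone, 625 (603 to 647) in 1089 cells with Icos alone and 466 (436 to 496) in 362 cells with both. S1pr1 was likewise highest with neither and lowest with both markers in control cells, with 244, 128, 144 and 86.2 CPM, taken in the same sequence of classes. In rescued cells Klf2 was at 567 CPM (534 to 602) in 542 cells with neither, 399 in 458 cells with Itgae alone, 440 in 921 cells with Icos alone and 338 (325 to 351) in 1469 cells with both. Rescued S1pr1 was at 129 CPM with neither, 75.8 (63.8 to 89.3) with Itgae alone, 107 with Icos alone and 81.8 (75.7 to 88.3) with both. It was thus not lowest with both markers there. For Klf2 and S1pr1 each marker alone went with a lower level, and both together with the lowest Klf2 level.

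Ccr7 separated the markers. In control cells it was at 248 CPM both with neither marker (236 to 259) and with Itgae alone (219 to 280), and at 188 (176 to 201) with Icos alone and 161 (144 to 179) with both. In rescued cells it was at 112 CPM (97.9 to 128) with neither, 150 (133 to 169) with Itgae alone, 67.9 (59.7 to 76.8) with Icos alone and 77.8 (71.8 to 84.2) with both. A low Ccr7 level therefore went with Icos UMIs and not with Itgae UMIs alone. S1pr4 was at 139, 130, 130 and 149 CPM in the 4 control classes and at 106, 88.1, 128 and 122 CPM in the rescued classes, taken in the same order.

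The gap between the libraries remained for Ccr7 when cells of the same joint class were compared. Its log2 ratio of rescued to control cells was -1.14 (-1.35 to -0.94) with neither marker, -0.73 (-0.98 to -0.48) with Itgae alone, -1.47 (-1.68 to -1.27) with Icos alone and -1.05 (-1.24 to -0.85) with both. For S1pr1 the ratio was -0.92 (-1.12 to -0.73) with neither and -0.08 (-0.32 to 0.17) with both, so the S1pr1 gap was not detectable at this depth in cells with both markers. For Klf2 it was -0.99 (-1.08 to -0.90) with neither and -0.46 (-0.57 to -0.35) with both. For Klf3 it was -0.22 (-0.39 to -0.07) with neither and 0.19 (0.01 to 0.37) with both, so its direction turned.

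To place the levels among kinds of cells, cells were clustered without the members, Itgae, Icos, Foxp3 or tdTomato, which gave 11 clusters named here by their leading genes. Klf2 fell into a high and a low range. In control cells it lay between 1121 and 1491 CPM in the clusters led by Ly6c1 and Dapl1, Igfbp4 and Gata1, S100a4 and Ccr2, Fam101b and Gm14085, and Ifit3 and Ifit1, and between 57.0 and 384 CPM in the other clusters of at least 50 control cells. S1pr1 divided the same clusters, with 230 to 353 CPM in the former and 40.7 to 58.1 CPM in the latter. The lowest levels of both were in the rescued cells of the cluster led by Ccr9 and Gbp2b, with 39.5 CPM (28.9 to 52.7) of Klf2 and 10.3 CPM (5.32 to 18.0) of S1pr1.

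The cluster led by S100a4 and Ccr2, with 268 control and 512 rescued cells, combined high Icos with high Klf2. Its Icos level was 596 CPM in control and 818 CPM in rescued cells, against 58.3 CPM in the control cells of the Ly6c1 cluster. Its Klf2 level was 1121 CPM (1067 to 1177) in control and 918 CPM (883 to 953) in rescued cells, and its S1pr1 level 230 (206 to 256) and 203 CPM (187 to 220). It had the highest S1pr4 level of the clusters in either library, 280 (253 to 309) and 245 CPM (228 to 264), beside a Ccr7 level of 81.7 (67.6 to 97.9) and 44.8 CPM (37.4 to 53.2). S1pr1 and Ccr7, by their known roles genes of leaving and of entering a lymph node, were thus apart in these cells.

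The cluster led by Pdcd1 and Lag3, with 234 control and 441 rescued cells, was low in Klf2, S1pr1 and Ccr7. Klf2 was at 57.0 (42.5 to 75.0) and 64.4 CPM (52.9 to 77.7) in control and rescued cells, S1pr1 at 47.0 (33.9 to 63.5) and 36.6 (28.1 to 47.0), and Ccr7 at 30.2 (19.9 to 43.9) and 11.2 (6.76 to 17.5). In the cluster led by Il1r2 and Areg, Ccr7 was at 194 CPM (174 to 216) in control and 85.1 (73.8 to 97.5) in rescued cells, beside a Klf2 level of 172 and 110 CPM. Klf3 was at 97.6 and 102 CPM there, its lowest among groups of at least 50 cells.

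**Figure D4:**
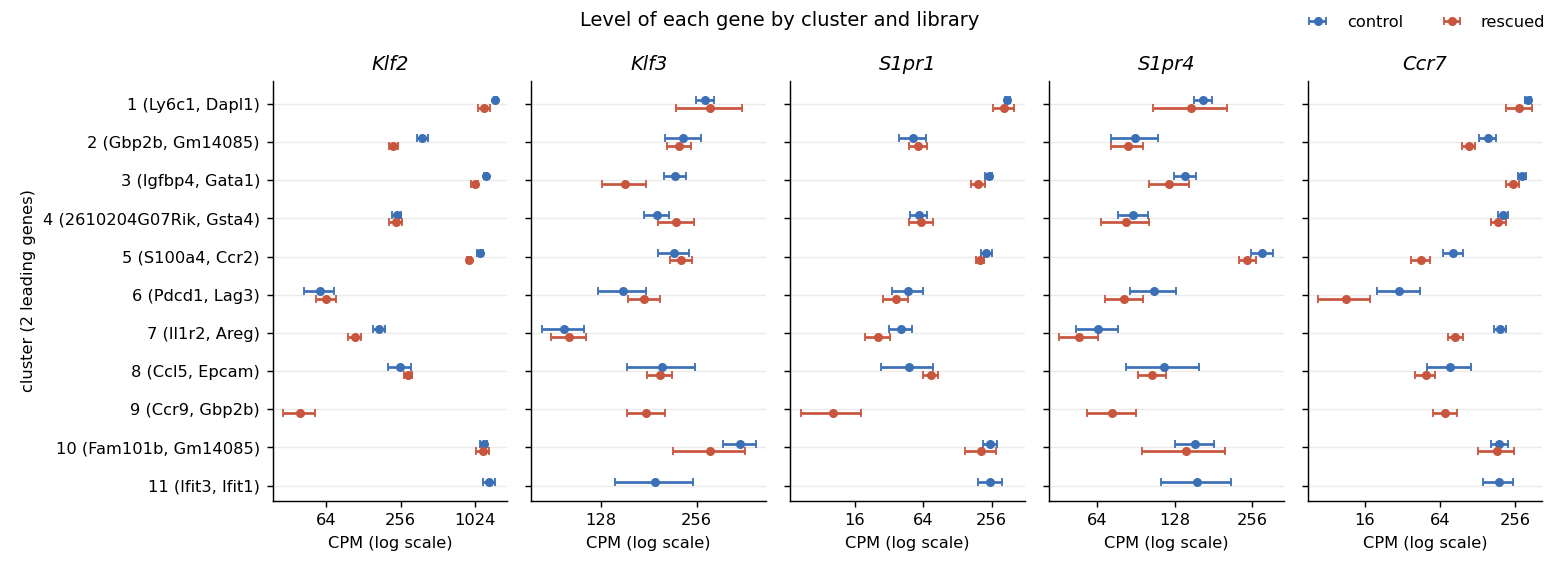
CPM of each member (x axis, log scale) in each cluster (y axis, named by its leading genes) for control (blue) and rescued (red) cells, with exact Poisson 95% intervals; groups under 50 cells are not drawn. Klf2 and S1pr1 are high in the same clusters, S1pr4 is highest in the S100a4 cluster, and Ccr7 is lowest in the Pdcd1 cluster.

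The libraries were closer together when cells of the same cluster were compared and the clusters averaged, though not in every cluster. Averaged over the 9 clusters with at least 50 cells of each library, with weights of cell number, the log2 ratio of rescued to control cells was -0.26 for Klf2, -0.02 for Klf3, -0.11 for S1pr1, -0.18 for S1pr4 and -0.58 for Ccr7. Single clusters among these 9 had wider gaps than all cells together for Ccr7, Klf3 and S1pr4. For Ccr7 the ratio was -1.43 (-2.36 to -0.53) in the Pdcd1 cluster, on 27 control and 19 rescued UMIs. For Klf3 it was -0.53 (-0.79 to -0.27) in the Igfbp4 cluster, and for S1pr4 -0.38 (-0.77 to 0.01) in the Pdcd1 cluster. The Ccr7 and S1pr4 intervals included their ratios over all cells. The Ifit3 cluster was left out for its few cells (66 control and 39 rescued). Its gaps were wider than over all cells for Klf2 (1329 and 330 CPM) and S1pr1 (248 and 114 CPM). The S1pr1 levels rested on 68 UMIs (193 to 315 CPM) in control and 21 UMIs (70.4 to 174 CPM) in rescued cells. The left-out cluster led by Ccr9 and Gbp2b (48 and 279 cells) had 138 and 39.5 CPM of Klf2, on 27 and 46 UMIs. Its S1pr1 levels of 15.3 (3.15 to 44.7) and 10.3 CPM (5.32 to 18.0) rested on 3 and 12 UMIs. The Ly6c1 cluster held 919 control and 60 rescued cells, so its rescued values rest on few cells. For Ccr7 the intervals lay below 0 in the clusters led by Gbp2b (-0.51), Igfbp4 (-0.25), S100a4 (-0.87), Pdcd1 (-1.43) and Il1r2 (-1.19). For Klf2 they did so in the Ly6c1 (-0.30), Gbp2b (-0.78), Igfbp4 (-0.29), S100a4 (-0.29) and Il1r2 (-0.65) clusters. For S1pr1 they did so in the Igfbp4 (-0.32) and Il1r2 (-0.67) clusters. In the remaining clusters of the 9 the Klf2 and S1pr1 intervals included 0. Against control cells with 4 or more tdTomato UMIs, the ratio of all rescued cells was -0.70 for Klf2, 0.01 for Klf3, -0.51 for S1pr1, -0.26 for S1pr4 and -0.80 for Ccr7.

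**Figure D5:**
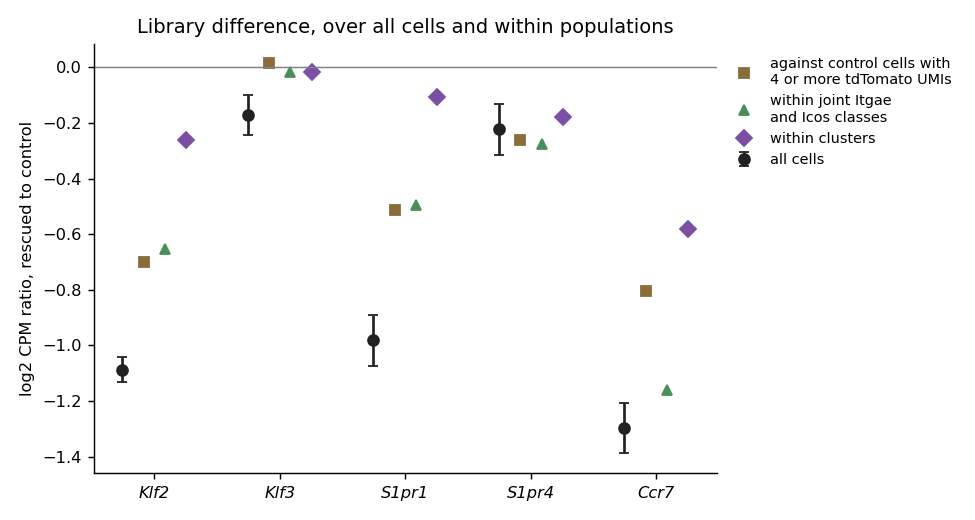
Log2 ratio of rescued to control CPM (y axis) for each member over all cells (black circles, with conditional exact 95% intervals), against control cells with 4 or more tdTomato UMIs (squares), within joint Itgae and Icos classes (triangles) and within clusters (diamonds). The Klf2 ratio lies at -1.09 over all cells and at -0.26 within clusters, and that of Ccr7 at -1.30 and -0.58.

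Of the falls along Icos, those of Klf2 in both libraries and Ccr7 in rescued cells were smaller inside clusters, and that of Klf3 in control cells was not. Within the 4 clusters that held at least 50 control cells of both classes, the log2 ratio of 3 or more to 0 Icos UMIs was -0.08 for Klf2, -0.47 for Klf3, 0.05 for S1pr1, 0.51 for S1pr4 and 0.08 for Ccr7. Within 6 such clusters of rescued cells it was -0.25, 0.05, 0.36, 0.25 and -0.63. Thus the S1pr1 and Ccr7 falls were absent within these control clusters, at ratios near 0 that have no interval. In rescued cells S1pr1 rose with Icos, and Ccr7 still fell. The Ly6c1, Igfbp4 and Fam101b clusters, high in Klf2 and S1pr1, were not among the clusters used in either library. These ratios therefore cover only part of the cells behind the falls over all cells. For Itgae in rescued cells, within 7 clusters, the ratio was -0.18 for Klf2, -0.25 for Klf3, -0.21 for S1pr1, 0.11 for S1pr4 and 0.76 for Ccr7.

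Transcripts of the tdTomato reporter, which Cre activity switches on, were counted in both libraries. Of control cells 37.1% and of rescued cells 44.1% had 0 tdTomato UMIs. The share that free RNA gives was not measured, so the UMI classes are not read as cells with and without the reporter. Median totals rose along the classes from 3508 to 4744 UMIs in control and from 3603 to 4570 in rescued cells. In control cells Klf2 was at 994 CPM in 1347 cells with 0 tdTomato UMIs, 875 with 1, 767 with 2 to 3 and 647 in the 468 cells with 4 or more. The rescued levels were 414, 367, 370 and 409 CPM, with 1496 cells in the first class and 809 in the last. Klf2 fell along the tdTomato classes in control cells and had no steady direction in rescued cells. Ccr7 went from 239 to 154 CPM in control and from 99.1 to 71.6 CPM in rescued cells over the same classes, and S1pr4 from 136 to 140 CPM and from 102 to 138 CPM. Klf2, S1pr1 and Ccr7 were at least 1.5-fold lower at 4 or more tdTomato UMIs in control cells, as were 1.48% of genes, and 0 members were higher, against 4.51%. In rescued cells 0 of 5 members passed in either direction, against 0.973% of genes lower and 1.48% higher.

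Along the Foxp3 UMIs of a cell the members changed less. In control cells Klf2 was at 889 CPM in 2678 cells with 0 and 704 CPM in 228 cells with 2 or more Foxp3 UMIs, and S1pr1 at 196 and 141 CPM. In rescued cells Klf2 was at 420 CPM in 958 cells with 0 and 393 CPM in 1721 cells with 2 or more, and S1pr1 at 92.5 and 92.8 CPM. Of the 5 members 0 passed 1.5-fold in control cells, against 2.77% of genes lower and 2.88% higher, and 0 passed in rescued cells, against 0.647% and 1.18%. The gap between libraries was present in each Foxp3 class: at 0, 1 and 2 or more Foxp3 UMIs its log2 ratio was -1.08, -0.97 and -0.84 for Klf2, -1.08, -0.74 and -0.60 for S1pr1, and -1.16, -1.14 and -1.27 for Ccr7. The classes held unlike shares of the libraries. With 0 Foxp3 UMIs were 73.7% of control and 28.3% of rescued cells, and with 2 or more 6.27% and 50.8%. The libraries carry different Foxp3 alleles, so an equal UMI class is not read as an equal Foxp3 state.

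Over the 20 cluster-by-library groups with at least 50 cells, Pearson's r of log2(CPM + 1) between Klf2 and S1pr1 was 0.95. It was 0.77 between Klf2 and S1pr4, 0.64 between Klf2 and Ccr7, 0.59 between Klf2 and Klf3, 0.82 between S1pr1 and S1pr4, and 0.14 between S1pr4 and Ccr7. With Icos, r was -0.86 for Ccr7, -0.68 for Klf2 and -0.22 for S1pr4. These groups share libraries and clusters, so r is a description. With the members themselves set aside, the 3 of 6956 genes most like Klf2 were Atp1b3, Cd55 and Fam65b (r of 0.97, 0.96 and 0.94), and the same 3 were most like S1pr1 (0.96, 0.94 and 0.94). Most like Klf3 were Zyg11b, Svil and 4930523C07Rik (0.89, 0.88 and 0.87), most like S1pr4 Cast, Crip1 and Cdc42se1 (0.91, 0.90 and 0.89), and most like Ccr7 Eef1a1, Gm9493 and Gnb2l1 (0.93, 0.93 and 0.92).

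Most other genes of the pathway differed by less than 1.5-fold between the libraries. Over all genes with at least 100 UMIs, 2.7% were 1.5-fold lower and 5.15% higher. A count of 0 in a list as short as these is near that share. Of 7 other Klf genes with at least 100 UMIs, only Klf7 was 1.5-fold lower, with 937 control and 464 rescued UMIs and a log2 ratio of -1.02 (-1.19 to -0.86). The median log2 ratio of these 7 genes was -0.29, beside 0.024 for all genes. The other S1P receptor in the table, S1pr2, had 133 and 185 UMIs (0.47, 0.14 to 0.80). Of 14 genes of S1P receptor signalling and its brake, 0 passed 1.5-fold in either direction, and Cd69, which holds S1PR1 off the cell surface, had 2511 and 2366 UMIs and a log2 ratio of -0.09 (-0.18 to -0.013).

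Of 11 genes known to act upstream of Klf2, 0 passed as well, and Foxo1 had 2689 and 2817 UMIs (0.06, -0.02 to 0.14). Of 4 genes of S1P metabolism and transport, 0 passed. These counts of 0 are near the share of all genes, 2.7% lower and 5.15% higher. Of 14 adhesion and chemokine receptor genes of lymph node entry, Rasgrp2, an activator of the Rap1 switch that turns on integrins, was lower (2078 and 926 UMIs, -1.17, -1.29 to -1.06), as was Cxcr4, the receptor for CXCL12 (1512 and 835 UMIs, -0.87, -0.99 to -0.74). Fut7, which makes selectin ligands, was higher (40 and 92 UMIs, 1.19, 0.64 to 1.77).

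Of 14 resting and central T cell genes 10 were lower and 0 higher, among them Tcf7 (-1.41), Satb1 (-1.18), Foxp1 (-1.11) and Bcl2 (-0.99), with a list median of -1.05, beside 2.7% of all genes lower and 5.15% higher. Of 13 tissue-homing receptor genes 0 were lower and 10 higher, among them Ccr9 (2.14), Cxcr3 (1.35) and Ccr4 (1.38), and of 16 Treg activation genes 0 were lower and 12 higher. These lists overlap genes that the study named from these libraries, so their directions are not independent of it. Among 13 dissociation stress genes Hspa1a (-1.18) and Hspa1b were lower and 0 were higher. Their part in the differences of the members was not tested.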

How the data were processed

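Treg cells sorted on GFP were captured with the 10x Genomics Chromium 3′ v3 kit, 1 library per group. The authors ran Cell Ranger 3.0 and Seurat 3.1.5, as named in the submitters' processing notes, on GRCm38, and deposited whole-number UMI counts for 7024 cells and 16098 genes without normalization, which are the values used here. A table of normalized log2 values made by the authors was not used here, and the number of further sample columns outside the comparison was 0. The deposited cells had median mitochondrial shares of 9.43% (control) and 9.06% (rescued), above the upper limit that the study's methods describe, so that limit was not applied here.

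Counts were assigned to libraries by the prefix of the cell name, summed over cells and divided by the summed totals (15446201 UMIs in the control and 15537656 in the rescued library). Intervals are exact Poisson for levels, Clopper-Pearson for shares and conditional exact for ratios, all at 95%, and cover counting error only. There were no replicates and no tests, and the mice behind each library cannot be told apart. Genes with at least 100 UMIs over both libraries served as background, and a change of 1.5-fold was counted. A ratio on few UMIs has a wide interval.

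Clusters came from scanpy 1.11.5 (2000 variable genes, 30 principal components, 15 neighbours, Leiden resolution 1), run once, and doublets were not removed. Alternatives left out the 3.5% of cells with the highest Scrublet scores, cells over 10% mitochondrial UMIs, or cells with a marker of another type, thinned cells to 1000 or 2000 UMIs, or compared within depth classes, joint marker classes or clusters. Leaving out the S100a4 cluster was chosen after seeing the data. Code was tested on simulated data. Promoters were RefSeq's for GRCm38.p6, limited to the 250 bases before the start, and those printed were chosen after the matches were seen.

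The members, lists and comparisons were chosen with earlier results of these data known. Named genes are the members, Itgae, Icos, Foxp3, Foxo1, Cd69, other S1P receptors, list genes with at least 100 UMIs and a 1.5-fold difference, and for each member the 3 genes most like it by Pearson's r among genes with at least 500 UMIs, without members, mitochondrial or ribosomal genes and those of antigen receptors. Of the lists, examples are given. 1 gene is not reported here. Protein sequences were not used here.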

Additional observations from a re-analysis of the deposited data

Results flagged for a closer look

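Between the lowest and the highest class of tdTomato UMIs, S1pr1 went in opposite directions in the 2 libraries. Taking cells with 4 or more against 0 tdTomato UMIs, its log2 ratio was -0.79 (-0.96 to -0.62) in control cells, from 228 CPM in 1347 cells to 132 CPM in 468 cells, and 0.22 (0.04 to 0.40) in rescued cells, from 90.5 CPM in 1496 cells to 105 CPM in 809 cells. This was noticed in the values, and cells with more tdTomato UMIs were also deeper, at median totals of 4744 against 3508 UMIs in control and 4570 against 3603 in rescued cells. With 1 library per group the difference was not tested. Over the same classes 1.48% of genes were at least 1.5-fold lower in control and 0.973% in rescued cells. With 1 and with 2 to 3 tdTomato UMIs, S1pr1 was at 179 and 166 CPM in control and 86.5 and 81.2 CPM in rescued cells. The rescued rise thus lay in the highest class alone, and S1pr1 had no steady direction there.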

How the results depend on the processing

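Of the values that answer a comparison, 77 moved by less than their counting interval under an alternative, 40 moved by more and 3 changed sign. For the ratio between libraries (log2, rescued over control), weighting every cell equally gave -1.16 for Klf2 and -1.08 for S1pr1. Thinning to 1000 UMIs gave -1.04 for Klf2, -0.35 for S1pr4 and -1.43 for Ccr7, and thinning to 2000 gave -1.17 for Klf2 and -1.09 for S1pr1. Leaving out cells over 10% mitochondrial UMIs gave -1.61 for Ccr7, leaving out cells with a marker of another type -1.13 for Klf2, and leaving out the cluster with the lowest median total -1.04 for Klf2. Without the S100a4 cluster, a choice made after seeing the data, the ratios were -1.55 for Klf2, -1.40 for S1pr1 and -0.48 for S1pr4.

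Within clusters they were -0.26 for Klf2, -0.018 for Klf3, -0.11 for S1pr1 and -0.58 for Ccr7, and within joint Itgae and Icos classes -0.65, -0.015, -0.50 and -1.16. Against control cells with 1 or more tdTomato UMIs they were -0.96 for Klf2 and -0.80 for S1pr1, and against those with 4 or more -0.70 for Klf2, 0.014 for Klf3 (a change of sign), -0.51 for S1pr1 and -0.80 for Ccr7. A minimum of 20 UMIs in place of 100 gave 5.21% of genes lower and 8.12% higher, and a minimum of 500 gave 1.59% and 3%.

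The median log2 ratio of the members along Itgae was -0.36 in control cells when 1 or more UMIs were set against 0, and -1.20 within classes of cell total. In rescued cells it was -0.98 after thinning to 1000, the S1pr4 value on 2 UMIs in 35 cells of the upper class. It was -0.60 after thinning to 2000 and -0.16 within classes of cell total. Along Icos it was -1.26, -1.51 and -1.10 in control cells under those settings, -0.46 with 1 or more against 0 UMIs and 0.046 within clusters. In rescued cells it was -0.94, -0.63 and -0.47, then -0.44 without the cluster of lowest total, -0.78 without the S100a4 cluster and 0.046 within clusters. Single members changed sign along Icos within clusters (S1pr1 0.046 in control and 0.36 in rescued cells, Ccr7 0.082 in control cells), the control values lying near 0. S1pr4 did so in control cells without the S100a4 cluster (-0.17) and with 1 or more against 0 UMIs (-0.027), and in rescued cells thinned to 1000 UMIs (-0.14). Klf3 in rescued cells, at -0.07 (-0.21 to 0.06) over all cells, was at 0.046 within clusters and kept its sign in 8 of 13 alternatives. The cause of these changes was not tested.

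No paired analysis was possible because a group consists of 1 pooled library. The Itgae comparison in control cells could not be run within clusters, since 0 clusters held 50 cells of both classes, nor at 1000 UMIs for Klf3, S1pr1 and Ccr7, where 4 cells remained with 3 or more Itgae UMIs. At 2000 UMIs that class held 31 control cells, so its thinned values rest on few counts.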

Other observations

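Lists of other genes were counted along the markers as genes at least 1.5-fold lower or higher in cells with 3 or more than in cells with 0 UMIs of the marker. With Itgae, 10 of 14 resting and central T cell genes were lower and 0 higher in control cells, and 5 lower and 0 higher in rescued cells. Over all genes tested, 6.81% were lower and 7.54% higher in control and 1.1% and 2.11% in rescued cells. With Icos, 8 were lower and 1 higher in control, and 7 lower and 1 higher in rescued cells, beside 4% of all genes lower and 7.74% higher in control and 2.2% and 3.79% in rescued cells. Of the tissue-homing receptor genes 7 of 9 were higher with Itgae and 8 of 9 with Icos in control cells, and 6 and 7 of 11 in rescued cells, with 0 lower. Of the Treg activation genes 10 of 14 were higher with Itgae and 14 of 14 with Icos in control cells, with 0 lower. In rescued cells 6 of 16 were higher and 2 lower with Itgae, and 14 higher and 0 lower with Icos. Of 13 dissociation stress genes, 2 were higher with Itgae and 3 with Icos in control cells, with 0 lower, and in rescued cells 1 was higher and 2 lower with Itgae, and 2 higher and 1 lower with Icos. Of the genes of S1P receptor signalling and its brake, at most 1 of 14 passed in any of these comparisons, and of the factors upstream of Klf2, at most 1 of 11.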
